A study of Mus musculus with 4 samples.

Results

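The peroxiredoxin and thioredoxin system was examined in mouse endometriotic lesions, implants of endometrium-like tissue that grow outside the uterine cavity, from animals fed a high-fat diet or a casein diet. Members were all probe sets annotated to exactly 1 of 10 gene symbols (Prdx1 to Prdx6, Txn1, Txn2, Txnrd1 and Txnrd2), and 19 probe sets of 7 genes met this rule, out of 18193 genes with such a probe set. The genes measured were Prdx2, Prdx3, Prdx4, Txn1, Txn2, Txnrd1 and Txnrd2. The 5 probe sets listed for Prdx1 also carried the pseudogene symbol Gm21399 and gave no value for it, and Prdx5 and Prdx6 were not analysed here. RNA of 4 lesion samples had been hybridised to Affymetrix 3′ expression arrays, 2 for the high-fat diet (HFD in the labels) and 2 for the casein diet, labelled as control. The series title describes an immunocompetent mouse model. Strain, genotype, age, length of feeding, how lesions were induced and the number of animals behind an array are not stated in the labels used here. P-values therefore measure the spread between these samples, which may be technical, and the number of arrays limits the precision.

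Peroxiredoxins are thiol peroxidases that reduce hydrogen peroxide and organic peroxides through a reactive cysteine. Most of them are then reduced again by thioredoxin, a small dithiol protein, which is itself recharged by thioredoxin reductase, a selenoprotein that draws on NADPH. The system runs in parallel in separate compartments: Prdx2 with Txn1 and Txnrd1 in the cytosol, Prdx3 with Txn2 and Txnrd2 in mitochondria, and Prdx4 in the endoplasmic reticulum (ER), where its peroxide turnover feeds disulfide formation in secreted proteins. Several genes of the system, among them Txnrd1, are known targets of NRF2, the oxidant-sensing transcription factor that binds antioxidant response elements.

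At the brightest probe set of each gene, the members differed by -0.18 (Txnrd1) to 0.32 (Prdx4) in log2 between the diets. No member passed limma's test (0 of 7, smallest adjusted p = 0.863), and no gene on the array did (0% of 12797 genes, smallest adjusted p = 0.823). At an unadjusted p under 0.05, limma gave 0 of 7 members and 4.97% of all tested genes. Of the 7 members 6 had a lower mean on the high-fat diet, against 51.4% of all tested genes, and 1, Prdx4, had a higher mean, against 48.6%. The median log2 difference, high-fat diet minus casein diet, was -0.06 over the members and -0.005 over all tested genes. The median absolute difference was 0.10 over the members and 0.12 over all genes. Both high-fat arrays lay below both casein arrays for 3 of 7 members (Txn1, Txn2 and Txnrd1), against 19.3% of all genes, and above them for 0 of 7, against 16.6%. In either direction that is 3 of 7 members and 36.0% of all genes. The range over the 4 arrays was under 0.30 log2 for 4 of 7 members, against 47.3% of all genes. With casein replicate 1 left out the members were divided into 2 higher and 5 lower, and leaving out either casein replicate 2 or high-fat replicate 1 gave 3 higher and 4 lower.

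**Figure D1:**
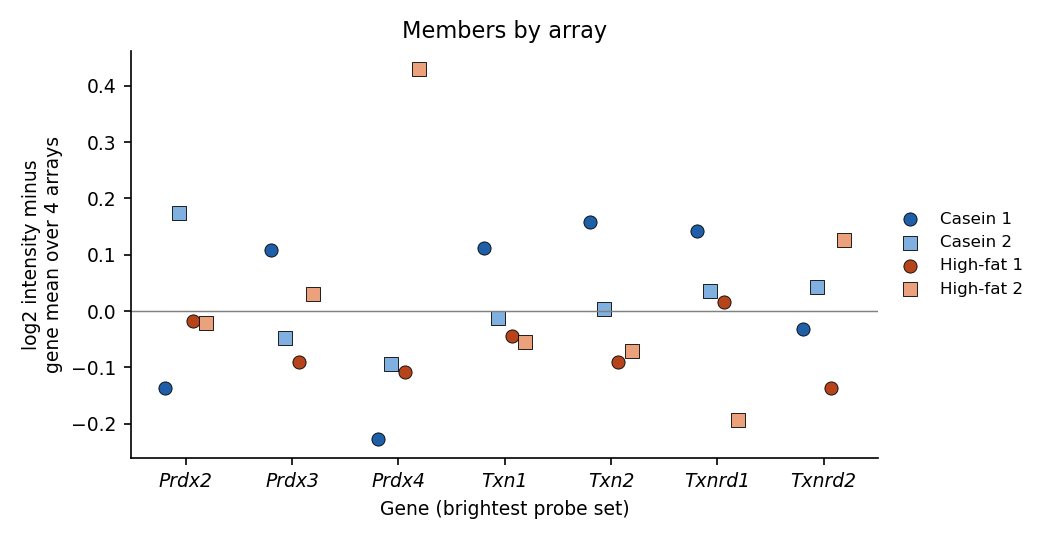
Log2 intensity of each member's brightest probe set on each array, minus the gene's mean over the 4 arrays, with colour for the diet and marker shape for the replicate. Prdx4 has the widest spread, from -0.23 in casein replicate 1 to 0.43 in high-fat replicate 2, and for Txn1, Txn2 and Txnrd1 both high-fat arrays lie below both casein arrays.

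Markers of other tissues differed between arrays of the same diet. Casein replicate 1 held the strongest signal of gastric surface markers. All 7 tested markers had a lower mean on the high-fat diet, although Atp4b differed by only -0.05. The summed intensity of the 9 on the array was 65060 and 9960 in the casein arrays and 400.3 and 410.2 in the high-fat arrays. Casein replicate 2 thus also lay far above both high-fat arrays in these markers, with the gastrokine gene Gkn2 at 14933 and 2548 in the casein arrays and 22.3 and 17.4 in the high-fat arrays. Intestinal markers were highest in casein replicate 1 as well, where the 10 on the array summed to 3856, against 378.5 in casein replicate 2 and 245.7 and 288.9 in the high-fat arrays. All 4 tested intestinal markers had a lower mean on the high-fat diet, with a median of -2.36. Of those not tested, Fabp2 and Alpi were also highest in casein replicate 1, at 792.5 and 135.9. Cdx1, Cdx2, Muc2 and Tff3 stayed under the filter value of 33.9 on every array. Exocrine pancreas markers summed to 1701 in casein replicate 1 and 399.0 to 441.8 in the other arrays. Most of that sum was Cela1, an elastase gene, at 1443 against 159.9 to 215.4, and 4 of 5 tested pancreas markers had a lower mean on the high-fat diet. Skeletal muscle markers (9 of 9 tested with a higher mean on the high-fat diet) summed to 653.2 and 910.8 on the casein diet, 26990 in high-fat replicate 1 and 790.7 in high-fat replicate 2. The labelled tissue was checked against its own markers. Epithelial genes of the endometrium were all dimmer in mean on the high-fat diet (9 of 9 tested), with sums of 26670 and 18110 against 7959 and 12030. Casein replicate 1 was the highest array for 6 of the 9, against 33.3% of all tested genes, with Krt8 at 10009.5 and Krt19 at 5236. Pax8 and Cldn4 differed by only -0.13 and -0.10, and Pax8 was highest in high-fat replicate 2. Ltf and Cldn4 were highest in casein replicate 2, with Ltf at 9294 there against 3833 in casein replicate 1. The gastric and intestinal signal was strongest in casein replicate 1 too, and its part in these sums was not tested. Stromal genes (8 of 10 with a higher mean) summed to 29820 and 34590 against 36110 and 32710. The largest part of each sum was the collagen gene Col3a1, at 14475 and 15997 against 17210 and 14385. Deviations of the stromal genes from each gene's mean averaged -0.37 log2 in casein replicate 1, and 0.09, 0.17 and 0.11 in the other arrays. The hormone receptor genes Esr1 and Pgr were bright on every array, between 3319 and 4046 and between 2032 and 2761. They were the 2 stromal genes with a lower mean on the high-fat diet, with differences of -0.05 and -0.39. Pgr read 2761 and 2600 in the casein arrays and 2032 and 2068 in the high-fat arrays (adjusted p = 0.863 in limma). In bulk tissue, fewer cells of a type and less RNA per cell cannot be told apart.

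The start regions of 4 members are shown here: Txn1, Txn2 and Txnrd1, whose groups did not overlap, and Prdx4, which differed most at the brightest probe set. No member passed limma's test, and these regions were chosen by the values of their genes. Each is a RefSeq window on GRCm38.p6, from 250 bases before to 50 bases after an annotated start, written 5′ to 3′ along the gene. Capitals mark the GC box GGGCGG, the TATA box TATAAA and the core of the antioxidant response element, TGACNNNGC, each on either strand.
Txn1, chr4:57956362-57956661, strand -: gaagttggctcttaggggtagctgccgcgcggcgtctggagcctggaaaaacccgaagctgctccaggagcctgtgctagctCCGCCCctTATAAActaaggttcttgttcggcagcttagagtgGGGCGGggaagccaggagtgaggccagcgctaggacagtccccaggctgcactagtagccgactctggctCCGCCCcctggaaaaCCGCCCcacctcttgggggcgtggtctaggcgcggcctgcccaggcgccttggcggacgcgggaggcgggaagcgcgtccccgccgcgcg
Txn2, chr15:77928945-77929244, strand -: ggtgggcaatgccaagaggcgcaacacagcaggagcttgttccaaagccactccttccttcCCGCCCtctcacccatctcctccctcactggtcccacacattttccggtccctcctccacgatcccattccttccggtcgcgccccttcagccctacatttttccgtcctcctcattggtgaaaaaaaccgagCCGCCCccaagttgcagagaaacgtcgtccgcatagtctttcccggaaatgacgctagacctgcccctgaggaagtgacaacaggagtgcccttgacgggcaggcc
Txnrd1, chr10:82858956-82859255, strand +: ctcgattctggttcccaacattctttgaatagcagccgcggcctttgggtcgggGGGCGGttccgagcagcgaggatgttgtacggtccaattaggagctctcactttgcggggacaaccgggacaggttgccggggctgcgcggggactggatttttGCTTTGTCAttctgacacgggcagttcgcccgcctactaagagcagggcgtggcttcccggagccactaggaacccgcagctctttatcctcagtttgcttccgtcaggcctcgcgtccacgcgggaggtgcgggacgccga
Prdx4, chrX:155338411-155338710, strand -: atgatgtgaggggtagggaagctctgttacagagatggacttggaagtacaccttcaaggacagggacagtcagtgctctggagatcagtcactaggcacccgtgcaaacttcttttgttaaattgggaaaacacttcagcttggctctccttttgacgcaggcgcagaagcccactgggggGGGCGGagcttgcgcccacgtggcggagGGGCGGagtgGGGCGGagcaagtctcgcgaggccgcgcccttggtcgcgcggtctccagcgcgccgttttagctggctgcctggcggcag
Windows were found for 9 of the 10 listed genes, 11 windows in all, because Txnrd1 has 3 annotated starts, of which the one with a response element core is printed. That core, GCTTTGTCA on the printed strand, begins at position -92 relative to the start. The core was present in 2 of the 11 windows (Prdx1 and this start of Txnrd1) and in 12.4% of all 32851 windows of this length. The GC box was present in 9 of 11 windows and 35.7% of all, the TATA box in 3 of 11 and 13.6%, the CCAAT box (CCAAT) in 3 of 11 and 37.4%, and the AP-1 site TGANTCA in 1 of 11 and 7.81%. The AP-1 site can overlap the response element core, and did so in Prdx1. A match is a description of letters in the window, not a measured binding site.

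Among the thioredoxins, Txn1 encodes the cytosolic protein that reduces peroxiredoxins, ribonucleotide reductase and many other targets. It had intensities of 4957 and 4544 in the casein arrays and 4449 and 4412 in the high-fat arrays. The groups did not overlap, but the lower casein array stood only just above the high-fat arrays. The log2 difference was -0.10 (SE 0.10, 95% interval -0.38 to 0.18, adjusted p = 0.871), a high-fat to casein ratio of 0.93 with an interval of 0.77 to 1.14. A dimmer probe set of Txn1 read 51.0 and 53.3 in the casein arrays and 45.0 and 45.6 in the high-fat arrays, a difference of -0.20 (SE 0.09), and there casein replicate 2 was the higher of the pair. Both probe sets had the same direction. At the brightest probe set Txn1 had the smallest range over the arrays of the 7 members, 0.17 log2, where the median of all tested genes was 0.32, and its difference was -0.04 when casein replicate 1 was left out.

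Txn2 encodes the mitochondrial thioredoxin that serves Prdx3. Its brightest probe set read 430.1 and 386.4 in the casein arrays and 362.1 and 367.2 in the high-fat arrays. The high-fat arrays lay close together, and casein replicate 1 lay above the rest, as it did for Txn1 and Txnrd1. The tested gastric surface, intestinal, exocrine pancreas and endometrial epithelial markers were on average also highest in that array. Their mean deviations were 4.0, 2.54, 0.52 and 0.74 log2, and their part in these values was not tested. The log2 difference was -0.16 (SE 0.10, 95% interval -0.46 to 0.14, adjusted p = 0.863), with -0.08 when casein replicate 1 was left out and -0.24 when casein replicate 2 was. The other 2 probe sets of Txn2 gave -0.12 each (SE 0.10), with both high-fat arrays below both casein arrays in each case. Probe sets of a gene read the same RNA and are not independent replicates.

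Txnrd1, the cytosolic thioredoxin reductase, read 1119 and 1040 in the casein arrays and 1025 and 886.8 in the high-fat arrays. High-fat replicate 2 was the lowest array, while high-fat replicate 1 was almost at the level of casein replicate 2. The log2 difference was -0.18 (SE 0.12, 95% interval -0.53 to 0.17, adjusted p = 0.863), with -0.07 when high-fat replicate 2 was left out and -0.28 when high-fat replicate 1 was. A second probe set read 102.0 and 114.5 against 101.7 and 83.8, a difference of -0.23 (SE 0.15), and the dimmest, at 33.2 to 35.6 on all arrays and close to the filter of 33.9, gave 0.04 (SE 0.10).

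Txnrd2, the mitochondrial reductase, read 114.9 and 121.0 in the casein arrays and 106.8 and 128.1 in the high-fat arrays. The high-fat arrays enclosed the casein arrays. The log2 difference was -0.01 (SE 0.13, 95% interval -0.39 to 0.36, adjusted p = 0.990). Its 3 other probe sets gave -0.13, 0.16 and 0.08, so no direction was shared among them. Of the mitochondrial genes, Txn2 alone had groups that did not overlap at the brightest probe set, and a difference between Txn2 and Txnrd2 was not tested.

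Among the peroxiredoxins, Prdx4 of the ER differed most at the brightest probe set, while a dimmer probe set of Prdx2 differed by 0.61. Its brightest probe set read 975.1 and 1070 in the casein arrays and 1060 and 1537 in the high-fat arrays. High-fat replicate 2 stood apart, and high-fat replicate 1 lay between the casein arrays. The log2 difference was 0.32 (SE 0.22, 95% interval -0.30 to 0.94, adjusted p = 0.863), a ratio of 1.25 with an interval of 0.81 to 1.92. Leaving out high-fat replicate 2 gave 0.05, and leaving out high-fat replicate 1 gave 0.59. The second probe set read 205.5 and 177.0 against 231.0 and 261.0, and the next 55.6 and 58.6 against 66.1 and 77.7. In both of these the high-fat arrays lay above the casein arrays, with differences of 0.36 (SE 0.13) and 0.33 (SE 0.12) and an adjusted p of 0.851 in limma's fit over all probe sets. The dimmest probe set, at 8.3 to 9.3 and under the filter, gave 0.04. High-fat replicate 2 was the highest array in all 3 probe sets of Prdx4 that were above the filter. Adipocyte markers were on average also high in that array, with a mean deviation of 0.82 log2 over 6 tested markers against -0.02 in high-fat replicate 1. Of the 6, 5 had a higher mean on the high-fat diet. High-fat replicate 2 was the highest array for 3 of the 6 (Adipoq, Retn and Fabp4), against 23.1% of all tested genes. Car3 and Pnpla2 were highest in high-fat replicate 1, and Lipe in casein replicate 1. The summed intensity of the 8 on the array was 1975 and 1978 in the casein arrays and 9076 and 6486 in the high-fat arrays, but most of it was Car3, a carbonic anhydrase gene, at 7414 and 3467 in the high-fat arrays. The adipokine genes Adipoq and Retn were lowest in high-fat replicate 1, at 33.1 and 83.8, and highest in high-fat replicate 2, at 348.1 and 345.9. The part of adipocyte markers in the values of Prdx4 was not tested.

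Prdx2, an abundant cytosolic peroxiredoxin that is also a major protein of red blood cells, gave different results by probe set. The brightest read 1963 and 2437 in the casein arrays and 2133 and 2127 in the high-fat arrays, with the high-fat arrays between the casein arrays and a log2 difference of -0.04 (SE 0.14, 95% interval -0.44 to 0.37, adjusted p = 0.968). The second read 266.8 and 198.0 against 333.7 and 371.0, with both high-fat arrays above both casein arrays. Its difference was 0.61 (SE 0.18, 95% interval 0.11 to 1.12), the largest of the 19 probe sets, with an adjusted p of 0.851 and an unadjusted p of 0.0271 in limma's fit over all probe sets. The arrays were also ordered differently: casein replicate 2 was highest in the first probe set and lowest in the second. Of 13 listed markers of red blood cells, only 7 had a probe set with 1 gene symbol, and these had a summed intensity of 139.7 to 148.8. The alpha-globin gene Hba-a1 read 8.4 to 9.8. Only 1 of the 7, Hbb-b2, reached the filter, at 41.2 to 44.6, so these values cannot show how much blood the samples held.

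Prdx3, the mitochondrial peroxiredoxin, read 868.4 and 779.1 in the casein arrays and 756.1 and 822.6 in the high-fat arrays. The groups overlapped, and the log2 difference was -0.06 (SE 0.11, 95% interval -0.38 to 0.26, adjusted p = 0.925).

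Over all 19 probe sets of the members, 17 were above the filter, 8 had a higher and 11 a lower mean on the high-fat diet, against 50.2% and 49.8% of all 34945 probe sets with 1 gene symbol. Groups did not overlap in 11 of 19 (4 above, 7 below), against 35.7% of all such probe sets (17.4% above, 18.2% below). The 7 below came from only 3 genes, Txn1, Txn2 and Txnrd1, and the 4 above only from Prdx2, Prdx4 and Txnrd2. No member probe set passed limma's test over all probe sets (0 of 19, and 0% of all), and 2 had an unadjusted p under 0.05, against 5.02% of all.

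**Figure D2:**
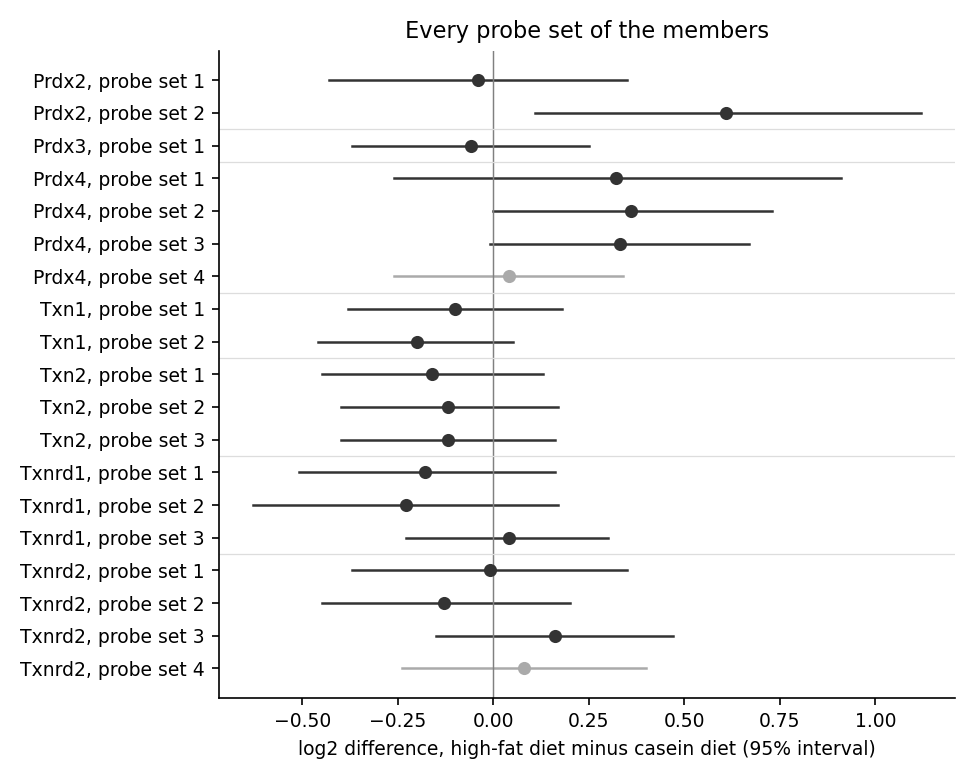
Log2 difference (high-fat diet minus casein diet) with its 95% interval for each of the 19 probe sets, ordered by gene and then by brightness, and grey where the probe set was under the filter. Prdx4 has 3 probe sets between 0.32 and 0.36, those of Txn1 and Txn2 all lie between -0.20 and -0.10, and the 2 of Prdx2 give -0.04 and 0.61.

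The genes that regulate and repair the system had 6 of 8 higher means and 2 of 8 lower, and 0 passed limma's test (0 at an unadjusted p under 0.05, median difference 0.13). Txnip, which encodes the protein that binds and inhibits thioredoxin, read 1445 and 1691 in the casein arrays and 1648 and 2313 in the high-fat arrays. Its log2 difference was 0.32 (SE 0.21), or 0.08 without high-fat replicate 2, the array in which Prdx4 was highest too. Srxn1 encodes sulfiredoxin, which rescues overoxidised peroxiredoxins. It read 248.2 and 252.3 in the casein arrays and 225.8 and 206.5 in the high-fat arrays, a difference of -0.21 (SE 0.10, 95% interval -0.50 to 0.07), with groups that did not overlap. The sestrin genes Sesn1 and Sesn2, which act in stress signalling, differed by 0.49 (SE 0.26) and 0.35 (SE 0.26). Both were lowest in casein replicate 1, at 465.7 and 110.9, and without that array the differences were 0.18 and 0.03.

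In the parallel glutathione-dependent branch, 2 of 5 genes had a higher and 3 a lower mean, and 0 passed (0 at an unadjusted p under 0.05 in limma). Gsr, the glutathione reductase, read 705.4 and 578.7 in the casein arrays and 516.3 and 467.5 in the high-fat arrays. Its difference of -0.38 (SE 0.15, 95% interval -0.79 to 0.03) was larger in size than that of any member at its brightest probe set, and it was -0.24 without casein replicate 1. The glutaredoxin gene Glrx differed by 0.02 (SE 0.31), with 573.6 and 331.6 on the casein diet enclosing the high-fat arrays, and the dim Glrx3 by 0.28 (SE 0.10). Of the methionine sulfoxide reductases, which repair oxidised methionine at the expense of thioredoxin, 1 of 4 had a higher and 3 a lower mean, and 0 passed (1 at an unadjusted p under 0.05 in limma). Msrb2, the mitochondrial enzyme, read 376.6 and 324.6 against 273.9 and 209.1, a difference of -0.55 (SE 0.18, 95% interval -1.07 to -0.03, adjusted p = 0.863), and Msrb3 differed by -0.30 (SE 0.18). High-fat replicate 2 was the lowest array for both, and without it they differed by -0.35 and -0.12.

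Thioredoxin relatives were divided evenly, 5 higher and 5 lower in mean with 0 passing and a median of -0.01. Nxn (nucleoredoxin) differed by 0.23 (SE 0.14), or 0.09 without casein replicate 1, and the membrane thioredoxin gene Tmx2 by -0.14 (SE 0.10), or -0.08 without that array. Genes of ER disulfide formation, the pathway that Prdx4 serves, were likewise divided, 3 higher and 3 lower, with 0 passing and a median of 0.02. Among them Pdia3, a disulfide isomerase, differed by -0.19 (SE 0.15), with -0.04 when high-fat replicate 1 was left out and -0.34 when high-fat replicate 2 was. The ER oxidase gene Ero1a differed by -0.22 (SE 0.27), or 0.13 without casein replicate 1. High-fat replicate 2 was the highest array for 4 of these 6 genes, against 23.1% of all tested genes, and it was the highest for Prdx4 too. The mean deviation of the 6 genes was 0.10 log2 in high-fat replicate 2 but 0.14 in casein replicate 1. For Prdx4 the corresponding values were 0.43 and -0.23. NADPH-supplying enzymes had 3 of 5 higher and 2 lower means, with 0 passing. Nnt, the mitochondrial transhydrogenase, differed by 0.45 (SE 0.16), or 0.26 without high-fat replicate 1. The malic enzyme gene Me1 differed by -0.93 (SE 0.74), with 1257 in casein replicate 1 and 298.3 to 362.6 in the other arrays, and by 0.07 without casein replicate 1.

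**Figure D3:**
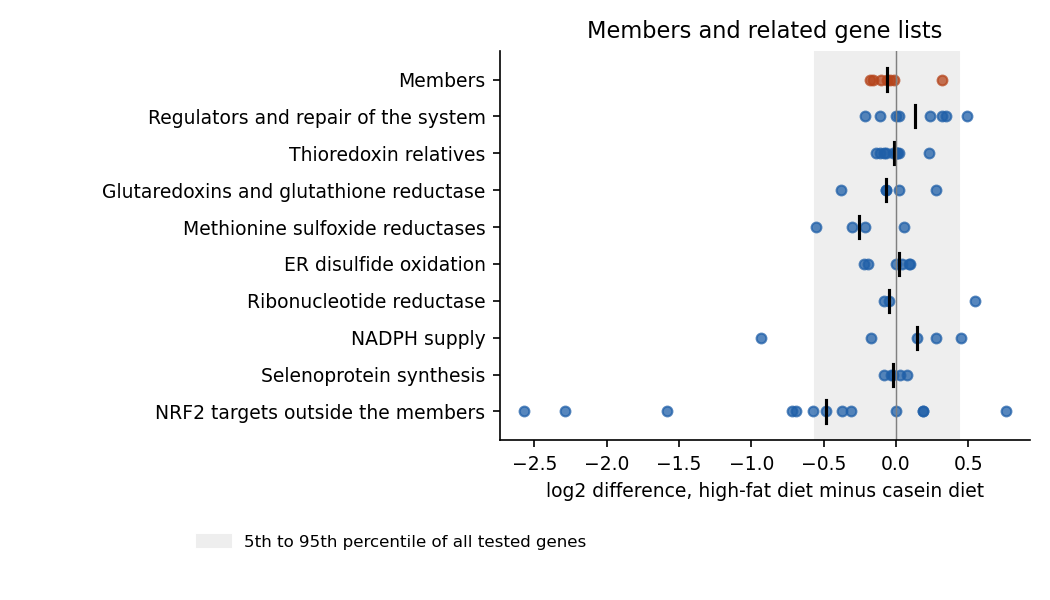
Log2 difference (high-fat diet minus casein diet) of each tested gene, one row per gene list, with the median as a black bar and the range from the 5th to the 95th percentile of all tested genes (-0.56 to 0.44) in grey. All 7 members lie inside that range, while NRF2 targets outside the members reach -2.57.

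NRF2 targets outside the members had a wider spread over the arrays. Of 13 tested, 9 had a lower and 4 a higher mean on the high-fat diet, with 0 passing (0 at an unadjusted p under 0.05 in limma) and a median of -0.48. Their mean deviation was 0.77 in casein replicate 1 and -0.12, -0.35 and -0.30 in the other arrays. For the members the corresponding values were 0.02, 0.01, -0.07 and 0.03, and single members ranged from -0.23 (Prdx4) to 0.16 (Txn2) in casein replicate 1. Casein replicate 1 was the highest array for 7 of the 13 targets, against 33.3% of all tested genes, and it was the lowest for 34.6% of all. The 7 were Nqo1, Gsta3, Gsta4, Cbr1, Cbr3, Akr1c13 and, by little, Gclm. The glutamate-cysteine ligase gene Gclc and the epoxide hydrolase gene Ephx1 were slightly higher in casein replicate 2. Hmox1, Slc7a11, Gstm1 and Slc48a1 were highest in other arrays, and Gstm1 (691.5) and Slc48a1 (266.7) were lowest in casein replicate 1. These targets were named after their values were seen. Nqo1, a quinone reductase and standard NRF2 target, read 895.2 and 76.6 in the casein arrays and 51.0 and 38.3 in the high-fat arrays, a difference of -2.57 (SE 1.30), or -0.79 without casein replicate 1. Gsta4, a glutathione S-transferase, differed by -2.29 (SE 1.16), or -0.70 without that array. Txnrd1, the measured member with a response element core in a start region, stood 0.14 log2 above its own mean in casein replicate 1. Of the measured members without a core, Txn1, Txn2 and Prdx3 deviated by 0.11, 0.16 and 0.11 in that array. Prdx2, Prdx4 and Txnrd2 deviated by -0.14, -0.23 and -0.03. A difference between the members and the other NRF2 targets was not tested. Intestinal markers had the same order of arrays, with mean deviations of 2.54 in casein replicate 1 and -0.48, -1.22 and -0.85 in the other arrays. Gastric surface markers had 4.0, 1.25, -2.59 and -2.66. The part of either list in these values was not tested.

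**Figure D4:**
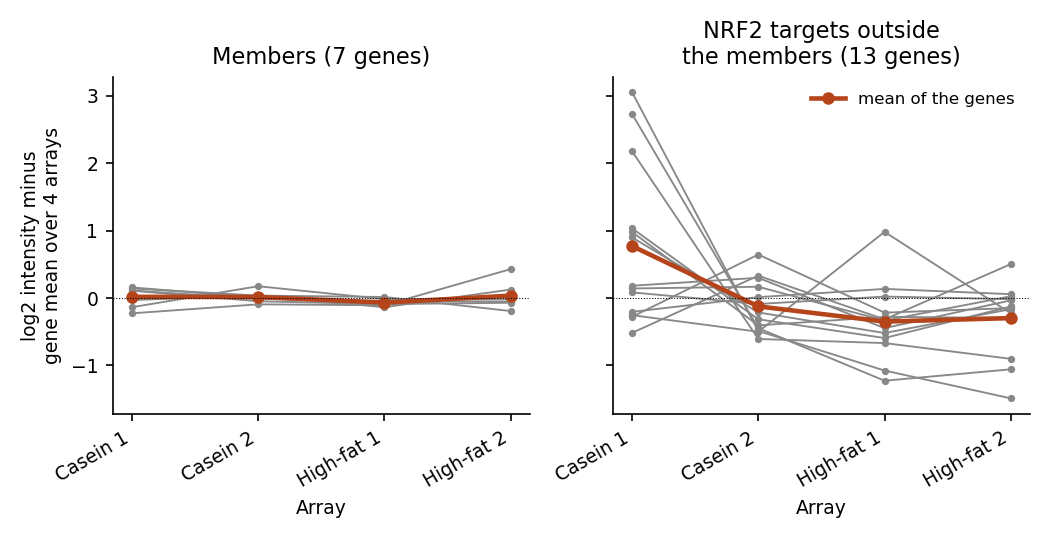
Log2 intensity minus the gene's mean over the 4 arrays for the 7 members (left) and for 13 NRF2 targets outside the members (right) on one shared scale, with a grey line for each gene and the mean of the genes in red. The mean of the NRF2 targets is 0.77 in casein replicate 1, the highest array for 7 of the 13. That of the members is 0.02, with single members from -0.23 (Prdx4) to 0.16 (Txn2).

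An exact two-sided permutation test of 2 arrays against 2 cannot go below p = 0.333, and single genes were therefore tested only in limma's fit across all genes. Leaving out casein replicate 2 gave 17 genes that passed, all lower on the high-fat diet, with no member among them (smallest member adjusted p = 0.460).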

How the data were processed

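The deposited values were probe set intensities on a linear scale, already alike between arrays, and how the authors normalised them is not stated. The tools named per the submitters' processing notes are GCOS and RMA, with no version, role or order stated. Per the labels' protocols, biotin-labelled aRNA was made from 0.1 µg of total RNA. Normalising between arrays hides a shift shared by most genes. Log2 was taken with no pseudocount. Groups came from the sample titles.

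Of 45101 probe sets, 34945 had 1 gene symbol in the platform annotation, 932 had several and 9160 had none, besides 64 controls. The gene identifiers of the 7 measured members matched the GRCm38.p6 gene table. For each gene the probe set with the highest mean log2 was kept, and 12797 genes with a geometric mean at or above the 40th percentile (intensity 33.9) were tested in limma 3.58.1 (R 4.3.3), two-sided, with Benjamini-Hochberg adjustment at 0.05 over all genes (3.80 total degrees of freedom). All probe sets with 1 symbol were fitted the same way to give values for single probe sets. Differences are the high-fat mean minus the casein mean in log2, and SE is the moderated standard error. The test was checked on simulated data.

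The members and gene lists were chosen with earlier results of these data known. Named genes are the members, Txnip, Srxn1, Gsr, Glrx and Nqo1, the 2 genes of each related list with the largest difference, and the 5 genes closest in pattern to the member with the widest range. Hba-a1, Hbb-b2, Esr1 and Pgr were named as markers. All other named markers, among them Gkn2, Cela1, Car3, Adipoq and Retn, were named after their values were seen. Alternatives were the replicate block, 2 normalisations, 2 filters, 2 treatments of probe sets, a pseudocount of 16, a trended variance prior and leaving out each array. Figures were drawn with matplotlib 3.10.9.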

Additional observations from a re-analysis of the deposited data

How the results depend on the processing

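No member passed under any alternative tried. The direction of Prdx4, Txn1, Txn2 and Txnrd1 was kept in all 13 alternatives with a test, over which they ranged from 0.05 to 0.59, -0.16 to -0.04, -0.24 to -0.08 and -0.28 to -0.07. The replicate block, the filters, the trended prior and the fit of single probe sets cannot change a difference at the brightest probe set. Those alternatives are thus no check of direction. With the mean of all probe sets of a gene, Prdx2 and Txnrd2 turned to 0.29 and 0.03, and 3 members were higher instead of 1. When 1 array was left out the number of members with a higher mean was 1 to 3 and the number of genes passing with lower values was 0 to 17. The differences then ranged from -0.19 to 0.12 for Prdx2, -0.14 to 0.02 for Prdx3, -0.14 to 0.12 for Txnrd2, -0.37 to 0.42 for Glrx, -0.56 to 0.13 for Ero1a, -0.18 to 0.02 for Rrm2b, -1.93 to 0.07 for Me1 and -0.03 to 0.52 for Erg. A fit that leaves 1 array in a group assumes that this array varies like the others. In casein replicate 2 and high-fat replicate 2 alone, an alternative chosen after seeing the data because the gastric signal was strongest in casein replicate 1 and the muscle signal in high-fat replicate 1, 3 members were higher and 4 lower, with 0.52 for Prdx4, -0.04 for Txn1, -0.07 for Txn2 and -0.23 for Txnrd1. This pair still differed in gastric surface markers, with sums of 9960 and 410.2. The cause of these changes was not tested.

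With the replicate number as a block, 0 genes passed (smallest adjusted p = 0.911, 576 genes at an unadjusted p under 0.05 in limma). Because each diet held the same replicate numbers, the block could not change any difference. The division into 1 member higher and 6 lower was thus fixed in advance. The deviations of same-numbered arrays from their group means correlated at -0.022 across genes. Deviations within a group mirror each other, so crossing the numbers only changed the sign, to 0.022. This value cannot show whether same-numbered arrays were paired or handled together, and that was not tested.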

Other observations

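Of the ribonucleotide reductase genes, whose enzyme receives electrons from thioredoxin to make deoxynucleotides, 1 of 3 had a higher mean and 2 a lower one, and none passed limma's test (0 at an unadjusted p under 0.05). Rrm2, the subunit made during DNA synthesis, read 654.2 and 421.7 in the casein arrays and 867.7 and 679.7 in the high-fat arrays, a log2 difference of 0.55 (SE 0.28, 95% interval -0.24 to 1.33), or 0.23 without casein replicate 2. Both high-fat arrays lay above both casein arrays, although by little for the closest pair. Rrm2b, the subunit of resting cells, differed by -0.08 (SE 0.13).

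The genes that build selenocysteine into proteins such as the thioredoxin reductases were nearly level, 2 of 5 higher and 3 lower with a median of -0.02 and none passing (0 at an unadjusted p under 0.05 in limma). Secisbp2, which recruits the selenocysteine machinery, differed by 0.08 (SE 0.10), or 0.01 without high-fat replicate 2, and the elongation factor gene Eefsec by -0.08 (SE 0.10), or -0.03 without casein replicate 1.

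Prdx4 had the widest range of the members, 0.66 log2. Among 12796 other tested genes, the 5 closest to it in centred log2 values over the 4 arrays were Flvcr2, 5530601H04Rik, Paics, Anxa9 and Erg, with a root mean square difference of 0.030 to 0.037 log2. All of these were highest in high-fat replicate 2, where Paics read 2470 against 1581 to 1778 in the other arrays. With 4 arrays many genes can share a pattern, so this is a description only.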
